A study of Caenorhabditis elegans with 2 samples.

Results

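The regions described here are the tRNA genes of Caenorhabditis elegans that do not lie wholly within a protein-coding gene. Of the 612 tRNA genes on the nuclear chromosomes in the Ensembl annotation (WBcel235, release 115), 322 met this rule, and the other 290 lay inside a protein-coding gene. The rule used only annotation, so no binding value entered it. Binding of REF-1 was measured by chromatin immunoprecipitation and sequencing (ChIP-seq) in whole embryos collected by egg bleaching at the midembryo stage (3 hours). The strain was RW12224, in which a CRISPR insertion adds TY1, EGFP and 3xFLAG tags to ref-1 on chromosome II, and the antibody was against GFP. There was 1 group with 2 biological replicates, both carrying the tagged allele, and no contrast between groups. No control library was analysed here. In whole embryos, strong binding in a few cells and weaker binding in many cells cannot be told apart.

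tRNA genes are transcribed by RNA polymerase III from a promoter that lies inside the gene itself. The factor TFIIIC recognises an A box near the 5′ end and a B box further downstream, and brings TFIIIB to the DNA just upstream of the gene. A run of T after the gene ends transcription. REF-1 is a basic helix-loop-helix protein with a pair of such domains and is a target of Notch signalling in the early embryo. Hairy and Enhancer-of-split proteins, which are related to it, are known to bind sites such as CACGCG. The genome holds many identical copies of most tRNA genes, so the flanks distinguish one copy from another.

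A gene is called bound here when a peak of the conservative set, the authors' list of 675 reproducible peaks, has its summit within 100 bp of the gene. Of the 322 genes, 109 were bound (33.9%, exact 95% interval 28.7 to 39.3, which covers counting error only) and 213 were not. Over all nuclear tRNA genes the share was 36.1%, and over the 290 genes inside protein-coding genes it was 38.6% (interval 33.0 to 44.5). The intervals of the outside and the inside genes overlapped. With replicate 1's own peaks the order was the other way, 26.4% outside and 25.2% inside. With replicate 2's own peaks it was as in the conservative set, 23.9% outside and 29.0% inside. The authors' other reproducible set of 653 peaks had a summit at 103 of the 322 genes (32%). It had one at 34.8% of all nuclear tRNA genes and 37.9% of the inside genes. Both sets had a summit at 98 of the genes, 11 were bound only in the conservative set and 5 only in the other.

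The 4 strongest bound genes are shown here with the A box and the exact B box GTTCGANNC in capitals, because the summits lie on these genes and not beside them. All are written 5′ to 3′ on the strand of the gene.
F28H6.t1, Arg-CCT, chrX:14115691-14115763, plus strand: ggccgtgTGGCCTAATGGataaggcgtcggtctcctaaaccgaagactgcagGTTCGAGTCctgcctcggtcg
C04A11.t1, Leu-CAA, chrX:13665555-13665673, plus strand: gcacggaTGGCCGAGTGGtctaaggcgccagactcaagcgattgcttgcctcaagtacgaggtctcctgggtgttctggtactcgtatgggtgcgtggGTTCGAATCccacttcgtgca
F57F5.t1, Ile-TAT, chrV:12002176-12002260, plus strand: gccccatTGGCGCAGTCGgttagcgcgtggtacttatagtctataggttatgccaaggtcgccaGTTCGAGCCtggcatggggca
C33G3.t2, Lys-TTT, chrX:14063946-14064018, minus strand: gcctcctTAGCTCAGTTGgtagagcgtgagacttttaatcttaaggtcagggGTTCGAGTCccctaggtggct
The sequences are from the RefSeq genome of the same build, and the amino acids from its annotation. The anticodon was read from the gene sequence for 316 of the 322 genes.

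Each peak has a deposited signal, a value of the authors whose unit is unstated, which ranks peaks within a list. At the 109 bound genes it had a median of 157 (quartiles 107 and 206, range 38.7 to 395). The median was 132 at the 112 bound genes inside protein-coding genes and 102 over the whole conservative set. F28H6.t1, an arginine tRNA gene 348 bp from the start of F28H6.7, was strongest at 395. Its own peak had a signal of 183 in replicate 1 and of 215 in replicate 2. C04A11.t1, a leucine tRNA gene of 119 bp, followed at 395, with 171 in replicate 1 and 229 in replicate 2. These were the strongest genes of replicate 1 and of replicate 2 respectively, each taken alone.

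F57F5.t1, an isoleucine tRNA gene with no identical copy, lay 379 bp from the start of gcy-33, which encodes a soluble guanylate cyclase. Its signal was 375, with 161 in replicate 1 and 209 in replicate 2. C33G3.t2, a lysine tRNA gene, lay 16 bp from the end of dyc-1 on the opposite strand and had a signal of 369. The replicates gave 148 and 205 there. The nearest protein-coding neighbour of R01H5.t1 (threonine, chrX:12563788-12563859) was 10914 bp away, and its signal was 359.9, with 164 and 191 in the replicates. Strong binding therefore occurred at genes close to a protein-coding gene and at genes far from any.

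W03G11.t1 (lysine, 45 bp from the end of the collagen gene col-181) had a signal of 358, with 147 in replicate 1 and 204 in replicate 2. T07H6.t2 (alanine) lay 546 bp upstream of lev-9, a gene needed to cluster acetylcholine receptors, and had a signal of 353, with 169.6 and 182. F22F1.t6, a methionine tRNA gene within a cluster of 6, had a signal of 333, with 119.7 and 207. The replicates differed most at this last gene among the 12 strongest.

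The rest of the 12 were F56F3.t1 and F35H8.t1 (both arginine with anticodon TCG, signals 321 and 305), M02F4.t1 (glycine, 299) and C53C7.t2 (serine, 293). The 12 genes carried 9 different amino acids. Of these genes, 9 were on chromosome X and 9 had no other tRNA gene within 1000 bp. Among all 109 bound genes these counts were 62 and 74. All 12 were also in the thresholded set of each replicate on its own, and the second replicate's signal was the higher in 11, M02F4.t1 being the exception with 147 in replicate 1 and 142 in replicate 2.

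The replicates were compared through the thresholded set each had on its own, of 344 peaks in replicate 1 and 405 in replicate 2. Replicate 1 had a summit at 85 of the 322 genes (26.4%), against 25.8% of all nuclear tRNA genes. Replicate 2 had one at 77 (23.9%), against 26.3% of all. The same 68 genes were in both, which is 80.0% of the genes of replicate 1 and 88.3% of those of replicate 2. A further 17 genes were in replicate 1 only and 9 in replicate 2 only. The matching overlap over all nuclear tRNA genes is not given here. Whether this agreement is particular to these genes was therefore not tested.

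Signal and replication went together among the 109 bound genes. Both come from the same replicates and are not independent, so the contrast is a description. The 68 in both own sets had a median signal of 196.7, the 21 in the own set of 1 replicate a median of 111, and the 20 in neither a median of 81.6. Those last 20 passed the authors' threshold only when the replicates were ranked together. Conversely, 3 genes with a peak in replicate 1 alone and 2 with a peak in replicate 2 alone were not in the conservative set. The strongest gene in replicate 1 alone was M02F4.t2, a glutamate tRNA gene with a signal of 147. Its peak was the peak of M02F4.t1, which lies 117 bp away. The strongest in replicate 2 alone was C43G2.t1, a leucine tRNA gene 254 bp from the start of try-3, with 109.6 in replicate 2. Y7A9D.t1 (histidine) followed with 86.3 and Y37A1B.t1 (alanine) with 80.7, of which only the former was in the conservative set.

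The list of candidates between the replicates, before any threshold, held 72151 peaks. A candidate had its summit within 100 bp of 213 of the 322 genes (66.1%), against 69.4% of all nuclear tRNA genes and 73.1% of the inside genes. Thus 109 genes had no candidate at all, 109 were bound and 104 had a candidate that was not retained. The list gives a signal for each of 2 inputs. The signal of the first input equalled an entry of replicate 1's own list at 39887 of the 72151 candidates and an entry of replicate 2's at 0. That of the second equalled an entry of replicate 2's list at 39929 and of replicate 1's at 0.

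Across the 109 bound genes the first input had signals of 30.5 to 183 (median 72.0) and the second of 36.6 to 229 (median 85.0). Across the 104 candidates not retained the medians were 21.0 and 22.5. The inputs correlated across bound genes with a Pearson coefficient of 0.82 on log2 values and a Spearman coefficient of 0.81. Over the 104 others these were 0.14 and 0.19. Genes are not independent replicates, and reproducible rank was what the authors' threshold selected, so the contrast is a description. The signals also shared sources: 16 genes with a candidate, 6 of them bound, had the same pair of input signals as their neighbour 67 to 196 bp away.

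**Figure D1:**
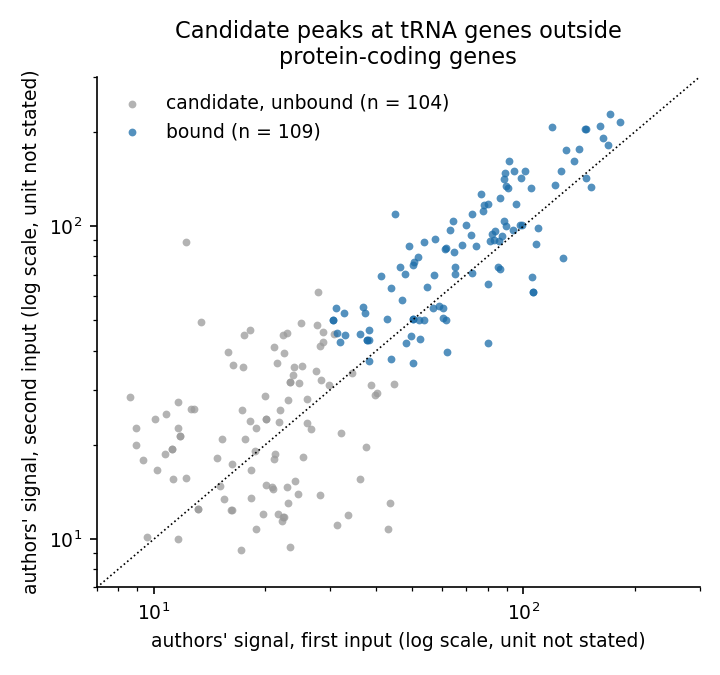
Signal of each candidate peak at tRNA genes outside protein-coding genes in the first input (x axis) and the second input (y axis), both on log scales in the authors' unstated unit; each point is 1 gene and the dotted line marks equal signal. The bound genes lie towards the upper right, with first-input signals from 30.5 upwards, and the second input was the higher at 82 of the 109.

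The score deposited with each candidate is a log transform of the irreproducible discovery rate (IDR) and reaches at most 1000. The conservative set held candidates with a score of at least 830, an IDR of at most 0.01. The 109 genes with such a candidate were exactly the 109 bound genes. Among the genes just under that score, C12C8.t2, a glycine tRNA gene in a cluster of 4 beside cbl-1, had a score of 829 and a signal of 80.3. It was in the authors' other reproducible set. Y7A9D.t2, an alanine tRNA gene, had the highest signal of any unbound gene, 86.6, with 27.8 in the first input and 61.8 in the second. Next were T07D10.t1 (alanine) with 81.3, C12C8.t2, F23A7.t1 (lysine) with 79.1 and T25E4.t1 (valine) with 76.9. C12C8.t2, F23A7.t1 and T25E4.t1 were among the 5 genes called only in the other set. At the low end of the bound genes, Y51H4A.t3 had a score of 856 and a signal of 74.2. A gene with a score of 829 and one with 856 thus fell on different sides with similar signals.

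Summits sat on the genes, towards their 5′ ends. Of the 109 bound genes, 96 had the summit inside the gene, 10 upstream of it and 3 downstream. Counted from the 5′ end on the strand of the gene, the median summit was at base 20 (quartiles 10 and 31), and 76 summits were within the first 36 bases. The A box began at base 8 at the median, and the exact B box at base 53. The median was 20 in the conservative set, 21 in replicate 1's own set and 23 in replicate 2's. At bound genes inside protein-coding genes it was 24.5. How fragment size or peak shape bears on the position was not tested.

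**Figure D2:**
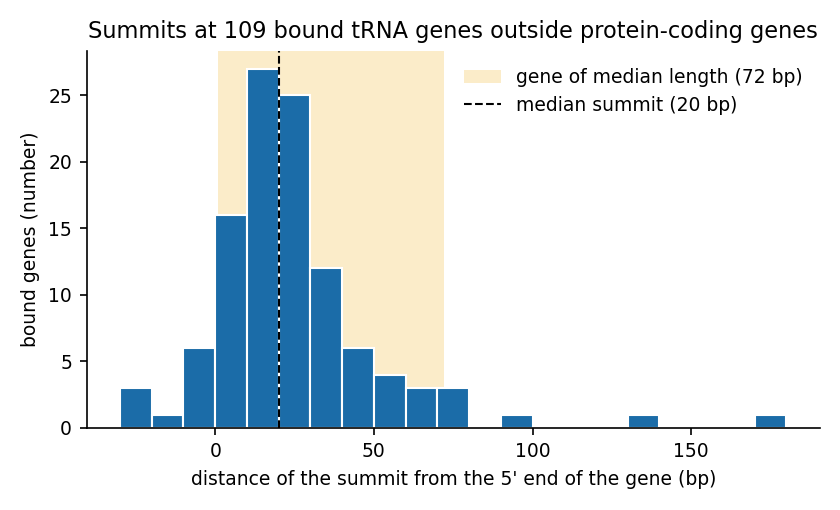
Number of bound genes (y axis) by distance of the summit from the 5′ end of the gene in bp (x axis, negative values upstream), in bins of 10 bp; shading marks a gene of the median length, 72 bp. Most summits fall in the 5′ part of the gene, with a median of 20 bp.

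The 109 bound genes had 108 different summits. T23F1.t1 (lysine) and T23F1.t2 (proline), which lie 67 bp apart on chromosome V near the start of pqn-71, were both within 100 bp of a single summit at position 15465258 with a signal of 183. That summit was inside T23F1.t2, so the call at T23F1.t1 rests on its neighbour's peak. It was in replicate 1's own set, with 106 there, and not in replicate 2's.

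Genes standing alone were bound more often than genes near another tRNA gene. Neighbours were taken over all nuclear tRNA genes, with gaps of up to 1000 bp joining genes into a cluster. Of 174 genes alone, 74 were bound (42.5%, interval 35.1 to 50.2). Of 102 genes in pairs, 25 were bound (24.5%), and of 46 genes in clusters of 3 or more, 10 were (21.7%). Together, 35 of the 148 genes with a neighbour were bound (23.6%, interval 17.1 to 31.3), so the intervals of lone and neighbouring genes did not overlap. In replicate 1 alone 61 lone and 24 neighbouring genes were bound, and in replicate 2 alone 55 and 22. Among genes inside protein-coding genes, 91 of 202 lone genes (45.0%) and 21 of 88 with a neighbour (23.9%) were bound.

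By distance to the next tRNA gene, the shares were lower up to 1000 bp than beyond it, with no steady order within either range. At up to 300 bp, 21 of 81 genes were bound, and between 300 and 1000 bp, 14 of 67. Beyond that the share was 42.2% between 1000 and 5000 bp (19 of 45), 44.1% between 5000 and 20000 bp (15 of 34) and 42.1% at longer distances (40 of 95). Shares of these genes did not rise further past 1000 bp. Among genes inside protein-coding genes the shares in the same classes were 15.2%, 33.3%, 29.5%, 42.9% and 51.7%. There they did rise past 1000 bp. These distance classes were drawn after the values were seen.

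Other properties moved with clustering. The GC content of the 50 bp upstream had a median of 44% at lone genes and 40% at genes with a neighbour. Of the lone genes, 46.6% were on chromosome X, against 66.9% of those with a neighbour. The share of 36-base words of the gene and its flanks that occur once in the genome was alike, 80.2% and 79.4% at the median. Among genes where this share was over 75%, 71 of 155 lone genes (45.8%, interval 37.8 to 54.0) and 29 of 115 neighbouring genes (25.2%, interval 17.6 to 34.2) were bound. Among genes with upstream GC over 42% the shares were 56.5% and 39.6%, and among the others 26.8% and 14.7%. In each of these GC classes the intervals of lone and neighbouring genes overlapped. Among the less unique genes, 3 of 19 lone and 6 of 33 neighbouring genes were bound. On chromosome X 39 of 81 lone and 23 of 99 neighbouring genes were bound, and on the autosomes 35 of 93 and 12 of 49. Genes that share a sequence or a neighbour are not independent, and the part of GC content and chromosome in the difference was not tested beyond these splits.

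Pairs with both genes bound were few. Of the 102 genes in pairs 24.5% were bound, and at that share alone such pairs would be few. Whether the pairs depart from that share was not tested. In the 49 pairs with both genes outside protein-coding genes, 29 had no bound gene, 17 had 1 and 3 had both. In the 16 pairs on the same strand, 7 had 1 bound gene and 0 had both. In the 33 pairs on opposite strands, 10 had 1 and 3 had both. Those 3 pairs, T23F1.t1 and t2, ZK154.t3 and t4, and T10B10.t1 and t2, are the 6 bound genes that share their pair of input signals with their neighbour. Among pairs with both genes bound, none thus had separate input signals at its genes. The genes of 22 of the 49 pairs had identical sequences.

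The cluster of 6 genes near hil-3, which encodes an H1 linker histone, spans chrX:8154445-8156707 and shows how binding differed between close genes. F22F1.t6 (methionine) had a signal of 333, F22F1.t5 (aspartate) of 108 and F22F1.t7 (isoleucine) of 90.8. F22F1.t2 and F22F1.t4, both serine, had no candidate, and F22F1.t3 (aspartate) had one with a score of only 25. None of these 3 unbound genes was in a thresholded set of either replicate. The other cluster of 6, near F28H6.8 and the kynurenine aminotransferase gene nkat-1 at chrX:14135045-14137010, consists of histidine tRNA genes of 1 sequence. There F28H6.t2 was bound with a signal of 79.8, F28H6.t5 had a candidate with a score of 561, and 4 genes had none. Between 0% and 73.8% of the 36-base words there occur once in the genome, so reads may not have been assignable to most of these genes.

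**Figure D3:**
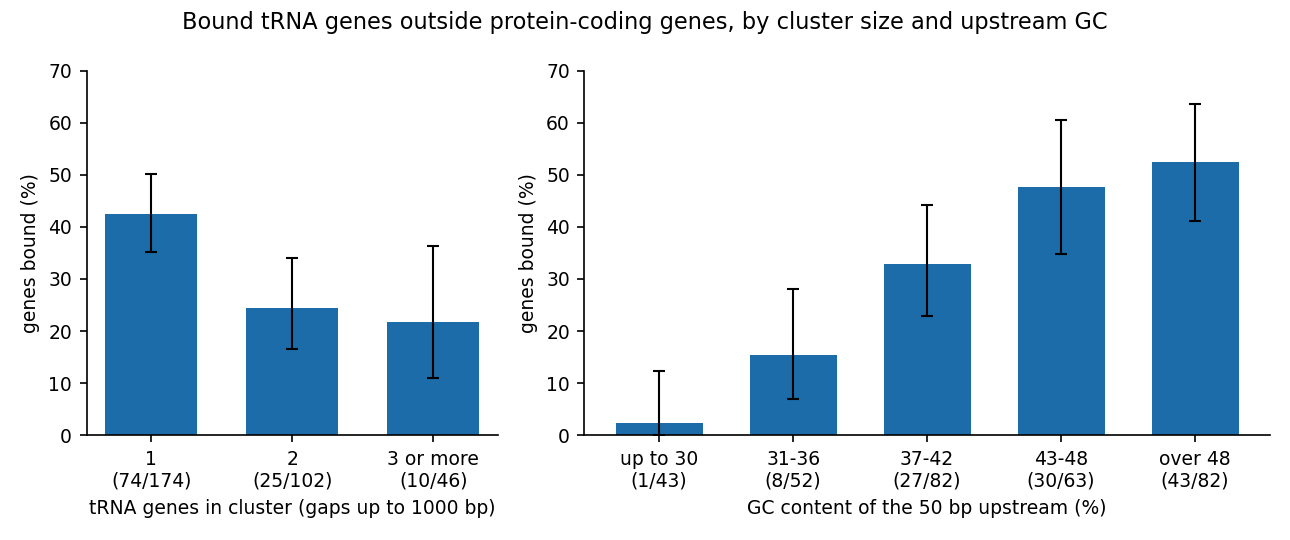
Share of genes bound (y axis, %) by number of tRNA genes in the cluster (left) and by GC content of the 50 bp upstream (right); bars give the share, error bars the exact 95% interval, and brackets the bound and all genes. The share was 42.5% for lone genes and under 25% in pairs and larger clusters, and rose from 2.33% to 52.4% over the GC classes.

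Identical copies often differed in binding. The 322 genes had 130 different sequences, and 42 of these occurred in several of the genes. In 32 of the 42 some copies were bound and others not (77 of 206 genes bound), in 7 none was and in 3 all were. The 75 genes with no identical copy anywhere were bound in 20 cases (26.7%), and genes with more than 10 copies in 55 of 151. The 3 sequences with most nuclear copies were glycine TCC, lysine CTT and proline TGG. Of glycine TCC, 9 of 17 genes were bound, with signals of 38.7 to 299. Among these, T10B10.t1 and t2 and ZK154.t3 and t4 share their input signals with their neighbour and were in neither own set. T10B10.t1 is the low end of the range. Of lysine CTT, 7 of 13 were, with 98.2 to 358, and of proline TGG, 6 of 13, with 88.4 to 249. A shared gene sequence therefore went with bound and unbound states and with a wide range of signals. Reads from within identical copies cannot be placed with certainty, and how the authors handled such reads is unknown here. Of the 13 genes with at most 50% of 36-base words occurring once, 0 were bound.

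The proline TGG genes show the copies next to their different flanks. Every one of the 13 genes has the sequence below, printed from ZK899.t1 at chrX:9467729-9467800 on the minus strand. The exact B box pattern GTTCGANNC does not occur in it.
ZK899.t1: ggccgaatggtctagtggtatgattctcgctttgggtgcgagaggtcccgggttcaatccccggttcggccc
The 50 bp upstream of the 6 bound genes, in order of signal, are given next, with TCTCTC or its complement in capitals. That word was chosen by its difference between bound and unbound genes of these data, so the marks support nothing.
ZK899.t1, signal 249, chrX:9467801-9467850, minus strand: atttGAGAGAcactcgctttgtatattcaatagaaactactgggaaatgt
T23F1.t2, signal 183, chrV:15465297-15465346, minus strand: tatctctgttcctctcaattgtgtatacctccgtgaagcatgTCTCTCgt
C16B8.t1, signal 166, chrX:3969506-3969555, plus strand: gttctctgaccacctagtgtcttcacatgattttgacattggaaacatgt
F46G11.t2, signal 154, chrX:5801283-5801332, minus strand: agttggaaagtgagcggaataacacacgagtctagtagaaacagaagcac
H06A10.t1, signal 141, chrX:13512042-13512091, minus strand: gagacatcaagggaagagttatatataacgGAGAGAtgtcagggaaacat
F02H6.t1, signal 88.4, chrIV:14225052-14225101, plus strand: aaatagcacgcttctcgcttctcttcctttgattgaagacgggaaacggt
The same 50 bp of the 7 unbound genes follow. These are both genes of 3 pairs, and F46G11.t1, the neighbour of the bound F46G11.t2.
C48C5.t3, chrX:8969560-8969609, minus strand: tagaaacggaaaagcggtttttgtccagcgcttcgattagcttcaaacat
C48C5.t1, chrX:8969688-8969737, plus strand: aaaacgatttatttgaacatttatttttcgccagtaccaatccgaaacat
F23D12.t2, chrX:14437945-14437994, minus strand: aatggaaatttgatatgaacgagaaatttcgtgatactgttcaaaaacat
F23D12.t1, chrX:14438052-14438101, plus strand: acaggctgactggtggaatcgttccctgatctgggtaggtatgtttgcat
Y7A5A.t2, chrX:15796805-15796854, plus strand: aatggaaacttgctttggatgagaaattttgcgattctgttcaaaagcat
Y7A5A.t3, chrX:15796695-15796744, minus strand: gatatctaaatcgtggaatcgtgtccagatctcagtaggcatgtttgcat
F46G11.t1, chrX:5801422-5801471, plus strand: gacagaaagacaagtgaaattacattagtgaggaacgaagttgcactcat
The upstream GC content was 42% at the median of the bound and 38% of the unbound genes of this family. The unbound F23D12.t1, at 50%, had more than any bound copy. Each of the 7 unbound genes had another tRNA gene within 1000 bp, against 3 of the 6 bound genes. At glycine TCC genes the upstream medians were 44% and 34%, and at lysine CTT genes 44% and 38%.

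Upstream GC content differed between bound and unbound genes over the whole set. In the 50 bp before the gene it had a median of 46% at the 109 bound genes (quartiles 42 and 52) and of 38% at the 213 unbound (quartiles 32 and 46). With up to 30% GC, 1 of 43 genes was bound, with 31 to 36% 8 of 52, with 37 to 42% 27 of 82, with 43 to 48% 30 of 63 and with more 43 of 82. The lowest class was bound in 2.33% (interval 0.0589 to 12.3) and the highest in 52.4% (interval 41.1 to 63.6). Among genes inside protein-coding genes 0 of 28 were bound in the lowest class and 41 of 73 in the highest. GC content was one of about 11 gene properties compared between bound and unbound genes, and its classes were chosen after the values were seen. GC content also affects how well DNA is amplified and sequenced, and its part in the result was not tested.

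Within families of identical gene sequence, the same direction was frequent. In 26 of the 32 mixed families the bound copies had the higher median upstream GC, and in 6 the lower. The genes themselves had the same median GC in both classes, 58.3%. Mean GC per 10 bp was 50.4% at bound genes and 37.7% at unbound genes centred 55 bp upstream, and 48.6% and 45.8% next to the gene. Downstream, the means centred 5 bp after the gene were 18.7% and 19%, and centred 55 bp after it 33.8% and 33.3%. Further downstream, centred at 95 bp, they were 33.9% and 29.3%. The separation was thus wider on the upstream side, and widest beyond the first 20 bp.

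**Figure D4:**
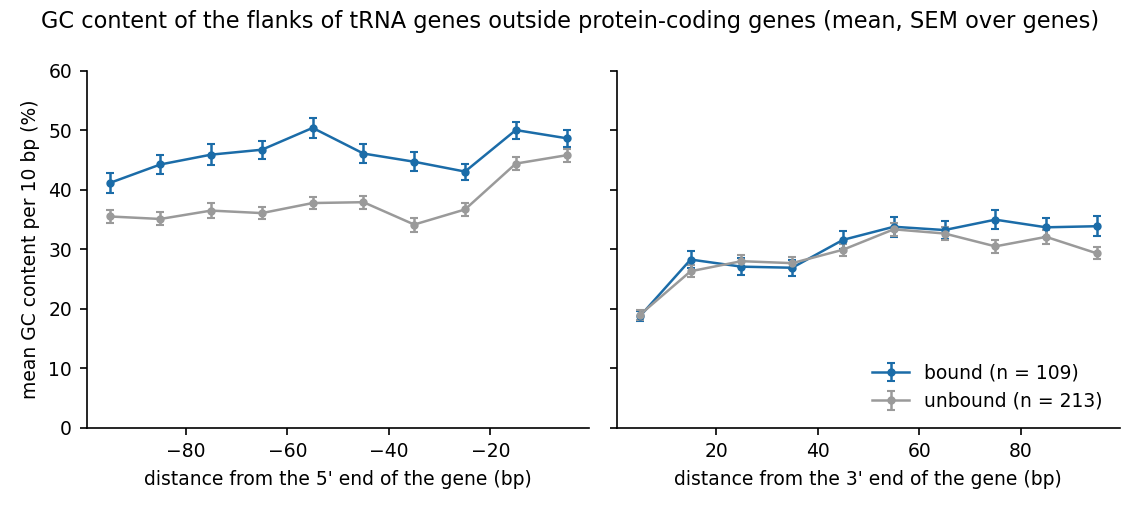
Mean GC content in bins of 10 bp (y axis, %) upstream and downstream of the gene (x axes, distance in bp) at bound and unbound genes; error bars are the standard error over genes. The curves are apart upstream, 50.4% against 37.7% at 55 bp, and close together in the first 60 bp downstream. Genes that share a sequence or a neighbour are not independent, so the bars may be too short.

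The elements of the internal promoter were present in bound and unbound genes alike. An A box was found in the first 40 bases of all 109 bound genes and of 206 of the 213 unbound genes (96.7%). The exact B box GTTCGANNC was in 70.6% of bound and 74.2% of unbound genes, and in 0.511% of 72 bp windows of the genome, on either strand. The pattern TTTT began within 20 bp after all 109 bound genes and 207 of the 213 unbound. The 7 genes without an A box were all unbound, and 1 of them, T04D3.t1, had a candidate, with a score of 94.

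CACGCG, searched on both strands in the gene and 100 bp on each side, was in 22 of 109 bound genes (20.2%, interval 13.1 to 28.9) and 29 of 213 unbound genes (13.6%, interval 9.31 to 19). The intervals overlapped. It was in 16% of all nuclear tRNA genes with their flanks and in 2.98% of genomic windows of 272 bp. Most occurrences were in the gene itself, in 16 bound (14.7%) and 20 unbound genes (9.39%), where windows of 72 bp in the genome hold it in 0.771%. In the 50 bp upstream it was in 2 bound and 3 unbound genes. The 36 genes that carry it belonged to 5 amino acids: arginine, glutamate, glycine, isoleucine and serine. In arginine genes it began at base 4, in glutamate TTC genes at base 40 and in isoleucine TAT genes at base 24. In the arginine sequence printed below it overlapped the start of the A box. Because the letters belong to the tRNA sequence, all copies of a family share them whether bound or not.

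Arginine ACG genes show this. Of the 8 that carry it, 5 have a sequence whose 10 nuclear copies are all on chromosome X, and 3 of these 5 were bound. The other 3, C28A5.t1, F08G5.t1 and F13G11.t1, have a second sequence and were not bound, with candidates of score 58, 57 and 25. The first sequence is printed, since the second also occurs on a chromosome whose sequence is not shown here. The complement of CACGCG is in capitals, in the sequence of C03A3.t1 at chrX:11252590-11252662 on the minus strand.
C03A3.t1: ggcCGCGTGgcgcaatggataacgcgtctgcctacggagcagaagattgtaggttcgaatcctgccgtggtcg
C03A3.t1 was bound with a signal of 151 (85.5 in replicate 1 and 74.0 in replicate 2). C14F11.t1 was bound with 109 and C18A11.t2 with 82.1. The nearest protein-coding gene of C18A11.t2 is xol-1, the switch gene of sex determination, 4556 bp away. F09B9.t1 and T01C1.t1 have the same sequence and were not bound, with candidates of score 548 and 102.

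The pattern TCTCTC, on either strand in the 50 bp upstream, was in 19 of 109 bound genes (17.4%, interval 10.8 to 25.9) and 9 of 213 unbound genes (4.23%, interval 1.95 to 7.87). It was in 8.17% of all nuclear tRNA genes and 2.54% of genomic windows of 50 bp. This pattern was chosen because it ranked first among all words of 6 bases by the difference between these same bound and unbound genes, so the difference is a product of that choice and supports nothing. Among genes inside protein-coding genes, which took no part in the choice, 12 of the 22 genes with the pattern were bound (54.5%, interval 32.2 to 75.6), against 38.6% of all inside genes.

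Every amino acid was represented among the bound genes. The 322 genes encode tRNAs for 20 amino acids, with 2 genes unassigned and unbound. Among the 16 amino acids with at least 10 genes, the share bound was lowest for serine, 5 of 24 (20.8%, interval 7.13 to 42.2), and highest for glycine, 13 of 28 (46.4%, interval 27.5 to 66.1). These intervals overlapped, as did those of every amino acid between them with both extremes. Glycine and serine were not the extremes in either replicate's own set. Replicate 1's had 5 of 28 glycine and 4 of 24 serine genes, against 10 of 20 lysine and 0 of 13 histidine genes. Replicate 2's had 7 glycine and 4 serine genes, against 7 of 19 alanine and 1 of 13 histidine genes. The strongest serine gene was C53C7.t2 with a signal of 293, 137 in replicate 1 and 162 in replicate 2. The strongest glycine gene was M02F4.t1 with 299. The order of shares was not the order of signals, since the 13 bound glycine genes had a median signal of 110 and the 8 bound leucine genes one of 201.

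Anticodons within an amino acid could not be separated at these numbers. Of the glutamate CTC genes 3 of 20 were bound (15%, interval 3.21 to 37.9), and of the glutamate TTC genes 5 of 9 (55.6%, interval 21.2 to 86.3). Inside protein-coding genes 3 of 4 glutamate CTC genes were bound, and over all nuclear genes 6 of 24 (25%). Of the serine AGA genes 1 of 11 was bound (9.09%, interval 0.230 to 41.3), against 2 of 7 serine TGA genes (28.6%, interval 3.67 to 71.0) and 13.3% of all nuclear serine AGA genes. Of the glycine TCC genes 11 of 23 were bound (47.8%, interval 26.8 to 69.4), and of the glycine GCC genes 2 of 5 (interval 5.27 to 85.3). The intervals overlapped within each amino acid. The 3 bound histidine GTG genes were in the own set of replicate 1 in 0 cases and of replicate 2 in 1 case.

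**Figure D5:**
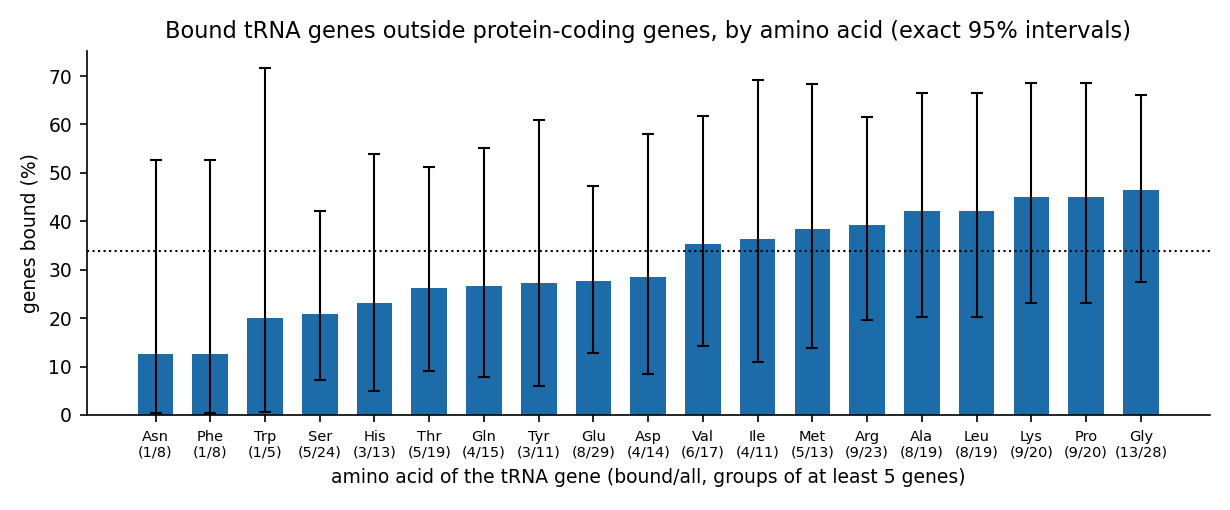
Share of genes bound (y axis, %) by amino acid (x axis, with bound and all genes in brackets, for amino acids with at least 5 genes); error bars are exact 95% intervals and the dotted line marks 33.9%, the share over all 322 genes. All intervals include the dotted line.

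The neighbouring protein-coding gene separated bound from unbound genes little. Of the 94 genes within 1000 bp upstream to 200 bp downstream of a protein-coding start, 34 were bound (36.2%), and of the 228 others, 75 (32.9%). With the start of the neighbour as its nearer end 61 of 162 were bound (37.7%), and with the end as its nearer end 48 of 157 (30.6%). On the strand opposite to the neighbour 60 of 161 were bound, and on the same strand 49 of 161. The median distance to the neighbour was 594 bp at bound and 798 bp at unbound genes. By distance the share ranged from 29.2% between 1000 and 2000 bp to 41.0% at up to 200 bp, with no order in between. The 3 genes that partly overlap a protein-coding gene were unbound.

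Chromosome X held 180 of the 322 genes and 62 of the 109 bound ones (34.4% bound). The autosomes ranged from 7 of 30 on chromosome V (23.3%) to 15 of 37 on chromosome IV (40.5%), with 8 of 27 on I, 9 of 26 on II and 8 of 22 on III. The share on X thus lay within the range of the autosomes.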

How the data were processed

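The deposited files are peak lists on ce11, the assembly that Ensembl calls WBcel235, per the labels. No source used here names the aligner or the peak caller or gives library depths. Depth is therefore unknown, and intervals cover only the counting of genes. The deposited signal, in an unstated unit of the authors, was used only within a list, for description and ranks. The deposited score follows from the global IDR on a log scale, with a ceiling of 1000. The deposited ranked lists also give the −log10 of the global IDR.

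Members were taken from the Ensembl annotation by position, and the summit of each peak (its start plus the summit offset) was compared with each gene at a distance of at most 100 bp. Clusters, copies, sequence elements and k-mer uniqueness (36 bases, gene and 100 bp flanks) were computed from the RefSeq genome of the same build. Neighbours were protein-coding genes. No test was run, since the design has 1 group and genes are not replicates. Shares have exact (Clopper-Pearson) 95% intervals. Named genes were the 12 strongest, the 5 unbound genes with the strongest candidates, the strongest 3 found in 1 replicate only, both largest clusters, the strongest genes of the extreme amino acids and the 3 largest mixed copy families. Genes named outside this rule, the arginine ACG family and the printed flanks were chosen after their values were seen. The members and lists were chosen with earlier results of these data known. Scripts were tested on simulated data. The software was Python 3.11.15, pandas 2.3.3, numpy 2.4.6 and scipy 1.17.1. Alternatives covered the summit distance, the peak set, each replicate alone, the IDR threshold, copies, clusters and upstream windows.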

Additional observations from a re-analysis of the deposited data

How the results depend on the processing

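Of 45 alternative settings, 30 left the value within its interval or the spread used, and 15 moved it. The one difference among them, in upstream GC content, kept its sign in each of its settings. The share of genes bound, 33.9% in the conservative set, was 23.9% to 26.4% in the own set of a single replicate, which has fewer peaks. It was 22.0% with a global IDR of at most 0.001 and 26.1% with the peaks above the median signal of the set, both of which keep fewer peaks. Counting a gene sequence or a cluster as bound when any copy or gene is bound gave 46.2% and 42.1%, and genes with no identical copy gave 26.7%. The median signal was 84.0 to 98.8 in the own sets, each on the scale of its own list. Lone genes were bound in 31.6% to 35.1% and neighbouring genes in 14.9% to 16.2% with a single replicate. CACGCG was in 20.2% of bound genes with 100 bp flanks and in 1.83% in the 50 bp upstream alone, a shorter window. The upstream GC difference of 8 percentage points became 5 with 20 bp. The settings for GC content, and those for lone and neighbouring genes with other peak sets, were chosen after seeing the data. No paired analysis was possible because the labels give 1 group and no contrast between groups. With depth unknown, an unbound gene is one at which no peak was called, not one shown to lack REF-1.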
